A study of Mus musculus with 8 samples.

Results

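Of the 54749 mouse genes in the deposited counts, 10 genes of the p53 pathway are described here: p53 itself (Trp53), its inhibitors Mdm2 and Mdm4, and the target genes Cdkn1a, Ccng1, Gadd45a, Bax, Bbc3, Trp53inp1 and Sesn2. They were chosen by symbol as known genes of the pathway, and all 10 passed the filter on low counts that left 21902 genes for testing. RNA was sequenced from sorted bone marrow cells of 4 asrij KO mice and 4 asrij floxed mice, with 1 library for each mouse. The study names these cells LT-HSCs, its term for long-term hematopoietic stem cells, and that name is kept here. The mice were 6 months old by the labels. The KO is a whole-body deletion of asrij, the gene Ociad1, so the cells that surround the HSCs lack it too, and the controls carry the homozygous floxed allele without the deletion. The labels name no treatment, and the methods give the sort gate of these libraries as LSK CD150+ CD48+. For LT-HSCs in RT-qPCR and in culture the same methods give LSK CD150+ CD48-, so the identity of the sequenced cells rests on the study's name. The libraries are numbered 1, 3, 4 and 5 in floxed and 2, 3, 4 and 5 in KO mice.

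p53 is a transcription factor that is made constantly and destroyed constantly. The ubiquitin ligase Mdm2 marks it for degradation, Mdm4 masks its activation domain, and stress such as DNA damage relieves both. Stabilised p53 then binds near its target genes, which arrest the cell cycle, trigger apoptosis or restrain metabolism, and Mdm2 is itself a target that closes the loop. In HSCs, p53 is known for holding cells in quiescence and for removing damaged cells. Because it is controlled mainly as a protein, the Trp53 transcript does not report its activity.

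Among these 10 genes, Gadd45a rose in KO LT-HSCs, to 1.70 times its floxed level (4 libraries each), and no member fell. Bax and Bbc3, the apoptosis targets, had KO means 1.65 and 1.61 times the floxed means without passing the test, while Mdm2, Ccng1 and Trp53inp1 had ratios of 0.818, 0.719 and 0.676, also without passing. Trp53 and Cdkn1a, the gene at the head of the pathway and its best known cell cycle target, had ratios of 1.11 and 0.964. The comparison asks how the loss of asrij changes expression of this pathway in LT-HSCs. Across all genes, 651 of 21902 (2.97%) had an adjusted p-value under 0.05, and 268 of them (1.22%) were higher and 383 (1.75%) lower in KO. The 1 member of 10 is to be read against these shares. None of the 10 also passed the absolute log2 fold change of 1.5 that the study set, against 261 genes (1.19%).

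The libraries held 23412829 to 44874882 gene counts, and every member had at least 250 reads in each of them, the lowest being Cdkn1a. Ociad1 was at 31.4 to 66.9 CPM (counts per TMM-scaled library size, a scaling that allows for differences in composition) in floxed and at 11.7 to 19.7 CPM in KO libraries. Libraries numbered 4 and 5 stood apart from those numbered 1 to 3 in both genotypes: 5635 genes (25.7%) did not overlap between these numbers, and what the numbers stand for is not given in the labels. Among HSC markers, which were low beside the erythroid and granulocyte lists, Kit was at 46.8 to 60.2 CPM and Slamf1, which encodes CD150, at 0.881 to 4.39 CPM. Summed erythroid markers were at 27654 to 69827 CPM in floxed and 121817 to 294701 CPM in KO, with 3 of 10 genes higher and none at 0. Megakaryocyte and platelet markers summed to 60.4 to 123 CPM in floxed and 189 to 222 CPM in KO, with 3 of 4 higher. Granulocyte markers summed to 15720 to 49058 CPM in floxed and 23524 to 29930 CPM in KO, with 0 of 9 past the adjusted threshold. T cell and NK cell markers summed to 55.7 to 80.5 and 37.9 to 41.8 CPM, with 1 of 6 lower, and B cell and plasma cell markers to 324 to 355 and 339 to 388 CPM, with 1 of 7 higher and 1 lower. No marker of these lists was at 0 in any library. In such bulk samples, a change in the share of one cell type and a change in RNA per cell cannot be told apart.

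p53 recognises DNA through pairs of a short half-site. The promoter matches are shown because 6 of the 10 genes carry a match and Cdkn1a carries a pair. The windows run from 250 bases before to 50 bases after each RefSeq start (GRCm38.p6). The p53 half-site consensus is its own reverse complement, so a match holds on both strands. A match lies in the window of 9.55% of 27025 genes. Of the members, 9 had a window, and 6 of these had a match. The matches are shown in capitals with 10 bases on each side, 5′ to 3′ along the gene's strand:
Trp53: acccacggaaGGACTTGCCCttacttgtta
Mdm2: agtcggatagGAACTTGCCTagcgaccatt
Cdkn1a, first match: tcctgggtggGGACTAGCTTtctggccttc
Cdkn1a, other match: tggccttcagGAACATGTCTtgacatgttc
Ccng1: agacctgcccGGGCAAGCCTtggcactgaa
Gadd45a: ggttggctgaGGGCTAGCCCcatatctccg
Bax: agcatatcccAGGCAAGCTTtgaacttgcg

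They lie at chr11:69580274-69580303 on the plus strand for Trp53, chr10:117710925-117710954 on the minus strand for Mdm2, chr11:40755452-40755481 on the minus strand for Ccng1, chr6:67037428-67037457 on the minus strand for Gadd45a and chr7:45467080-45467109 on the minus strand for Bax. The Cdkn1a matches are at chr17:29090896-29090925 and chr17:29090918-29090947 on the plus strand. Together they form a pair of 32 bases, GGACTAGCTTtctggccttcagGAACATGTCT, with 12 bases between the half-sites and the first base 73 bases before the RefSeq start at 29090979, which is upstream of the start of the counted transcript at 29093769. A pair with a gap of at most 13 bases was found in 0.074% of genes. Only exact matches were counted. The 10 bases that directly follow the other Cdkn1a match differ from the consensus at their first base only, so they were not counted as a half-site. Which of these half-sites p53 binds was not tested. The Gadd45a match begins 40 bases before its start and the Bax match 201 bases before. Mdm4, Bbc3 and Sesn2 had no match in these windows, and Trp53inp1 had no window. Genes with a match included Gadd45a, the member called higher, members whose KO libraries were lower and members with overlapping values. The match thus does not sort the members by direction. Binding was not measured, so a half-site match is not a shown p53 site. A gene without a match may have a site outside these windows.

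**Figure D1:**
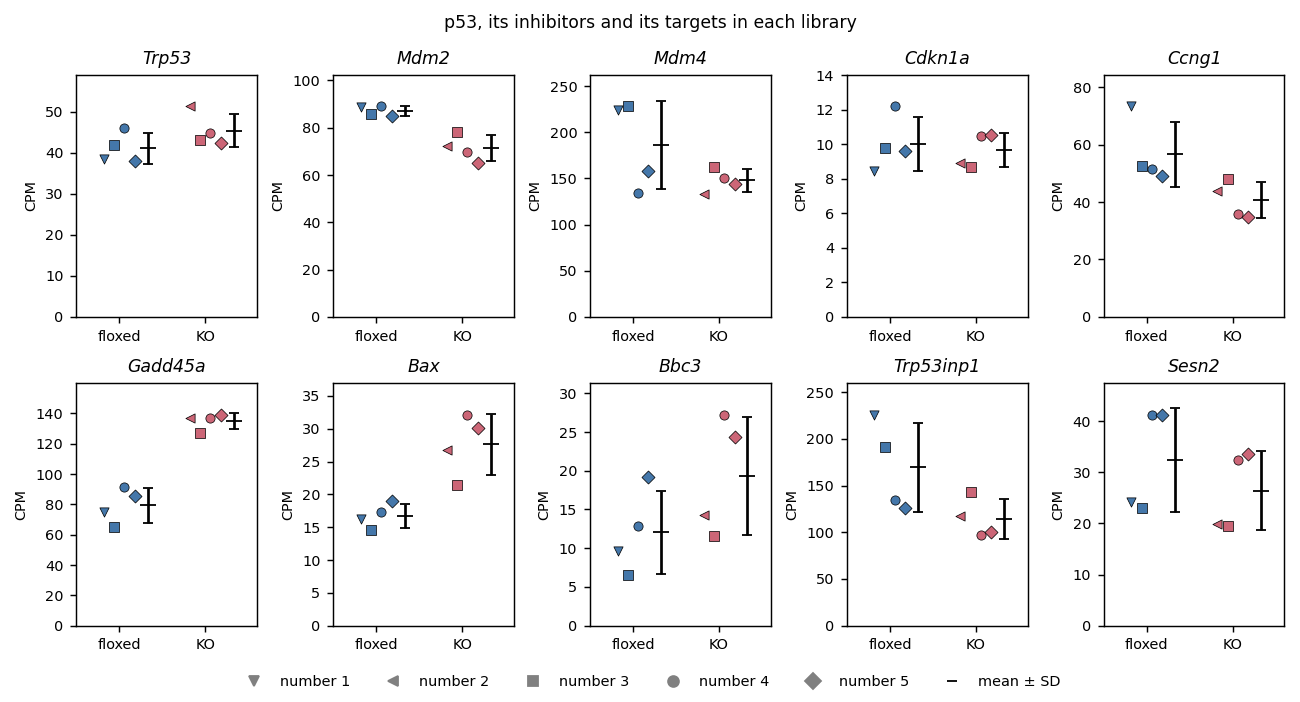
CPM of each of the 10 genes (vertical axis, linear, from 0) in the 4 floxed (blue) and 4 KO (red) libraries, with symbols for the library numbers and the mean ± SD beside each group. Gadd45a and Bax show every KO library above every floxed library, Mdm2 and Ccng1 every KO library below, and Sesn2 separates by library number.

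Trp53 (chromosome 11, 69580359 to 69591873, plus strand, GRCm38) encodes p53. It was at 38.4, 42.0, 46.0 and 38.1 CPM in floxed 1, 3, 4 and 5, and at 51.4, 43.1, 44.9 and 42.4 CPM in KO 2, 3, 4 and 5. The ranges overlapped, with KO 2 the highest library. The log2 fold change, KO over floxed, was 0.14 (SE 0.14, edgeR quasi-likelihood adjusted p = 0.590), and its 95% interval ran from -0.16 to 0.45. With library totals in place of TMM factors the value was -0.04, because that scaling moved the median of all genes from -0.0058 to -0.20, and relative to this shift Trp53 remained above the median gene.

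Mdm2 (chromosome 10, 117688875 to 117710758, minus strand) encodes the main ubiquitin ligase of p53. Its floxed libraries lay close together, at 88.6, 85.7, 89.1 and 85.2 CPM, and its KO libraries were at 72.2, 78.1, 69.9 and 65.1 CPM. All 4 KO libraries were below all 4 floxed libraries. Its log2 fold change was -0.29 (SE 0.13), with an edgeR adjusted p of 0.216. Mdm4 (chromosome 1, 132959484 to 133025338, minus strand) encodes the relative of Mdm2 that blocks p53 without degrading it. It was at 224, 228, 134 and 158 CPM in floxed 1, 3, 4 and 5, and at 133, 162, 151 and 144 CPM in the KO libraries. Only floxed 1 and floxed 3 were above the KO range, and floxed 4 and 5 lay within it. For Mdm4 the log2 fold change was -0.33 (SE 0.20, edgeR adjusted p = 0.373).

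Cdkn1a (chromosome 17, 29093769 to 29100722, plus strand) encodes p21, the inhibitor of cyclin-dependent kinases. It was among the lowest members, at 8.46, 9.76, 12.2 and 9.58 CPM in floxed and 8.89, 8.69, 10.5 and 10.5 CPM in KO libraries. The ranges overlapped almost fully. Cdkn1a had a log2 fold change of -0.05 (SE 0.18, edgeR adjusted p = 0.896) with a 95% interval from -0.45 to 0.34, and the sign turned when transcripts were summed (0.0037) and without floxed 4 (0.06). Ccng1 (chromosome 11, 40748552 to 40755311, minus strand) encodes cyclin G1, which recruits a phosphatase to Mdm2. It was at 73.4, 52.6, 51.5 and 49.0 CPM in floxed and 43.9, 48.0, 36.0 and 34.8 CPM in KO libraries. No KO library reached the lowest floxed library, floxed 5, to which KO 3 was nearest. This gave a log2 fold change of -0.48 (SE 0.18, edgeR adjusted p = 0.166).

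Gadd45a (chromosome 6, 67035096 to 67037406, minus strand) encodes a stress sensor that arrests cells and takes part in DNA repair. It was at 75.1, 65.2, 91.4 and 85.7 CPM in floxed 1, 3, 4 and 5, and at 137, 127, 137 and 139 CPM in KO 2, 3, 4 and 5. The KO libraries lay in a narrow band above the floxed ones, with means of 135 ± 5.32 CPM and 79.3 ± 11.6 CPM (SD, n = 4 each). Its log2 fold change was 0.77 (SE 0.15, 95% interval 0.43 to 1.10, edgeR adjusted p = 0.0329). With the replicate number as a block, which uses the 3 pairs numbered 3 to 5, it was also 0.77, with an adjusted p of 0.149 in edgeR. The same libraries without the block gave 0.75 and an adjusted p of 0.277. Leaving out each library in turn kept the value between 0.69 and 0.84. In those edgeR fits the adjusted p was 0.0054 without floxed 3, 0.117 without floxed 1, 0.0522 without floxed 4, 0.0776 without floxed 5, 0.112 without KO 2, 0.0749 without KO 3, 0.128 without KO 4 and 0.125 without KO 5.

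The Gadd45a span overlaps E230016M11Rik, an antisense gene on the plus strand whose total was 34.8% of the Gadd45a total, and strand was not used in counting, so reads of the overlap cannot be told apart. The last 1275 bases of Gadd45a (chromosome 6, 67035096 to 67036370) lie outside the antisense gene. Reads that touch this stretch alone were at 55.0, 45.03, 62.9 and 47.1 CPM in floxed and 101, 98.6, 79.9 and 78.6 CPM in KO libraries. Every KO library was again above every floxed one, with a log2 ratio of the means of 0.77. The other reads of the gene were at 20.1, 20.1, 28.5 and 38.6 CPM in floxed and 35.5, 28.6, 56.9 and 60.4 CPM in KO libraries. These overlapped between genotypes, with a log2 ratio of the means of 0.76. Erythroid and megakaryocyte markers were higher in the same KO libraries, with the values given above, and their part in the Gadd45a difference was not tested. When haemoglobin genes were left out of the fit, Gadd45a had a log2 fold change of 0.76 (edgeR adjusted p = 0.0373).

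Bax (chromosome 7, 45461697 to 45466898, minus strand) encodes the protein that opens the outer mitochondrial membrane in apoptosis. It was at 16.2, 14.6, 17.4 and 18.9 CPM in floxed and 26.8, 21.5, 32.1 and 30.1 CPM in KO libraries. No floxed library reached the lowest KO library, KO 3. The log2 fold change was 0.72 (SE 0.17), and the adjusted p of 0.0534 from edgeR was just above the threshold. It passed without floxed 3 (0.67, edgeR adjusted p = 0.0273), with at least 50 counts required in 4 libraries (0.73, adjusted p = 0.0460) and in DESeq2 (0.73, adjusted p = 0.0057). Bax shares its 5′ part with Gm45808, a gene model on the same strand whose total was 98.0% of the Bax total and whose log2 fold change was 0.12. In the stretch beyond that model of a Bax transcript that ends short of the counted one (chromosome 7, 45461867 to 45465188), the reads were at 4.43, 4.84, 3.36 and 3.41 CPM in floxed and 9.12, 6.16, 5.78 and 4.93 CPM in KO libraries. All 4 KO libraries were above all 4 floxed libraries there too, although KO 5 and floxed 3 nearly touched. The log2 ratio of the means in this stretch was 0.70.

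Bbc3 (chromosome 7, 16309616 to 16318205, plus strand) encodes PUMA, which frees Bax to act. It was at 9.60, 6.58, 12.9 and 19.2 CPM in floxed and 14.2, 11.6, 27.2 and 24.4 CPM in KO libraries. Within each genotype, libraries 4 and 5 were the higher ones, and the genotypes overlapped. Its log2 fold change was 0.69 (SE 0.37, edgeR adjusted p = 0.319), with a 95% interval from -0.14 to 1.51. The erythroid marker sums given above were likewise higher in KO, and higher in KO 4 and 5 than in KO 2 and 3. In floxed 1, 3, 4 and 5 they were 27654, 69827, 51604 and 51508 CPM. Floxed 3 thus had the highest sum of the floxed libraries and the lowest Bax and Bbc3. The part of these markers in the Bax and Bbc3 values was not tested.

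Trp53inp1 (chromosome 4, 11156431 to 11174379, plus strand) encodes a stress protein that promotes p53 phosphorylation and autophagy. It was at 226, 191, 135 and 126 CPM in floxed and 118, 144, 96.8 and 100.1 CPM in KO libraries. Floxed 1 and 3 were the highest, and KO 3 lay above floxed 4 and 5. This was a log2 fold change of -0.56 (SE 0.23, edgeR adjusted p = 0.185). Sesn2 (chromosome 4, 132492032 to 132510501, minus strand) encodes sestrin 2, which restrains mTORC1 under stress. It was at 24.3, 23.0, 41.2 and 41.2 CPM in floxed and 19.96, 19.5, 32.4 and 33.7 CPM in KO libraries. It separated by library number, the 4 libraries numbered 4 and 5 being above the other 4, as 25.7% of tested genes did in either direction. The log2 fold change between genotypes was -0.30 (SE 0.28, edgeR adjusted p = 0.580).

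**Figure D2:**
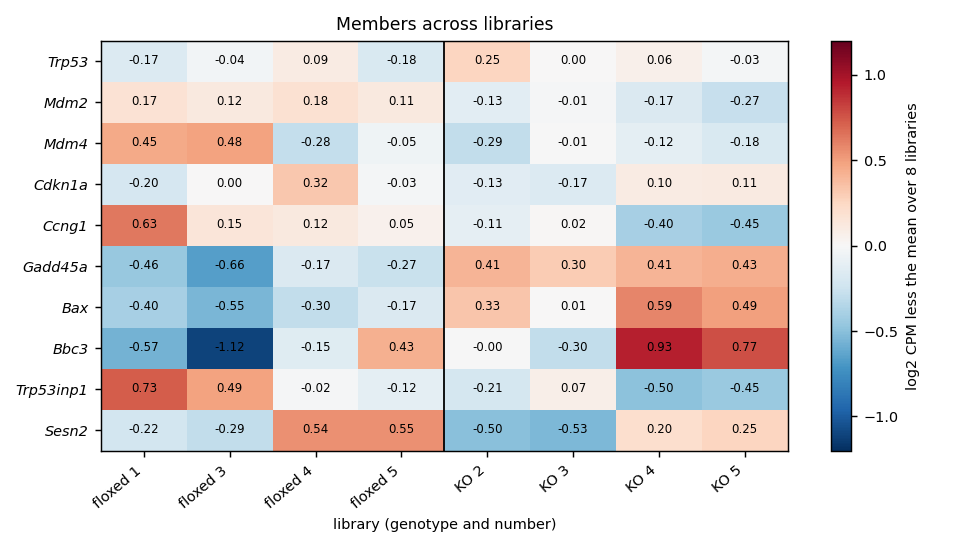
Log2 CPM of each member in each library less the member's mean over the 8 libraries (colour scale and printed values). Gadd45a and Bax are below their mean in the 4 floxed libraries and above it in the 4 KO libraries, Mdm2 the reverse, while Sesn2 and Bbc3 also differ between numbers 4 and 5 and numbers 1 to 3.

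In all, 4 of the 10 members did not overlap between genotypes, Gadd45a and Bax with KO above and Mdm2 and Ccng1 with KO below, against 14.8% of tested genes (7.1% above and 7.66% below). For any single such gene, an exact two-sided permutation test over the 70 labelings must give p = 0.0286, the smallest it can reach. The value therefore adds nothing to the lack of overlap by which these genes were picked. At an unadjusted p under 0.05 in edgeR, 5 members passed, against 21.8% of tested genes. The fold changes were positive for 4 members and negative for 6, with a median of -0.17, against a median of -0.0058 over all tested genes.

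The members were then compared within numbers 1 to 3 and within 4 and 5. Gadd45a had log2 fold changes of 0.91 and 0.64, Bax 0.65 and 0.78, and Bbc3 0.68 and 0.69, so these 3 were higher in KO within both. Ccng1 had -0.45 and -0.51, Mdm2 -0.21 and -0.37, Trp53inp1 -0.67 and -0.41, and Sesn2 -0.26 and -0.32. Mdm4 had -0.61 within numbers 1 to 3 and 0.02 within 4 and 5. The term for this difference had an unadjusted p under 0.05 for 1 of the 10 members, Mdm4, against 8.51% of tested genes. No member and no gene of the 21902 passed the adjusted threshold in edgeR, where the adjusted p of Mdm4 was 0.570. Without floxed 1, floxed 3 is the lone floxed library among numbers 1 to 3 and is assumed to vary like the other groups. In that edgeR fit 28.5% of 22264 genes passed, among them Mdm4 (0.58, adjusted p = 0.0257) and Gadd45a (-0.45, adjusted p = 0.0454), and nothing is read from these calls. With numbers 4 and 5 as a block in the comparison of genotypes, 4059 genes (18.5%) and 5 members passed in edgeR: Gadd45a (adjusted p = 0.0047), Bax (0.0062), Bbc3 (0.0252), Ccng1 (0.0265) and Trp53inp1 (0.0193). With the replicate number as a block, 48 genes (0.222%) and none of the members passed.

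The deposited count of a transcript covers its whole span, with introns, so the place of the reads within a gene was examined by setting a transcript that reaches the 3′ end beside one that stops short of it. The transcripts were chosen after the counts were seen, and reads confined to the 13 to 73 further bases that the longer transcript has at its 5′ end are counted with the 3′ stretch. For Mdm4 this was done in another transcript than the counted one, which runs on past this 3′ end to 132959484. Reads that touch only the last 3625 bases of the other transcript (chromosome 1, 132986220 to 132989844, in its last exon) were at 107.6, 88.8, 99.5 and 106 CPM in floxed and 98.7, 114, 119 and 112 CPM in KO libraries, which overlap. Reads of the rest of that transcript were at 110.1, 134, 30.4 and 45.8 CPM in floxed and 28.0, 42.8, 25.0 and 25.8 CPM in KO libraries. In the rest of this Mdm4 transcript, floxed 1 and 3 were above the other 6 libraries, whereas in its 3′ stretch floxed 3 was the lowest of all 8. The log2 ratio of mean CPM was 0.14 in the 3′ stretch and -0.35 for the whole of the same transcript.

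For Mdm2, the last 1234 bases (chromosome 10, 117688875 to 117690108) had 28.8, 23.5, 47.6 and 36.3 CPM in floxed and 33.4, 34.3, 34.9 and 31.8 CPM in KO libraries. The rest had 59.8, 62.1, 41.5 and 48.9 CPM in floxed and 38.8, 43.8, 34.9 and 33.3 CPM in KO libraries. The log2 ratio of the means was -0.02 at the 3′ end, -0.49 in the rest and -0.29 over the gene. The separation of Mdm2 by genotype was not seen in its 3′ stretch. In the rest, KO 3 was above floxed 4, so the genotypes overlapped there too. For Trp53, reads of the last 1368 bases (chromosome 11, 69590506 to 69591873) made up 51.2%, 38.7%, 74.3% and 65.7% of the floxed counts and 53.3%, 62.1%, 63.2% and 65.6% of the KO counts. The log2 ratio of the means in that stretch was 0.21. For Trp53inp1, the last 7979 bases (chromosome 4, 11166401 to 11174379) held 89.1% to 97.1% of the reads in floxed and 95.3% to 98.0% in KO libraries, and the log2 ratio there was -0.50, near the -0.56 of the gene. The 3′ share was lowest in floxed 3 for these 4 genes, but not for the stretches of Gadd45a and Bax. For Gadd45a it was lowest in floxed 5 (54.9%, against 69.1% in floxed 3). For Bax it was lowest in KO 5 (16.5%, against 34.1% in floxed 3). The stretches of Trp53inp1, Gadd45a and Bax are longer than the spliced counted transcript (5404, 1223 and 867 bases), so they take in introns of it. The shares of different genes are therefore not like measures.

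**Figure D3:**
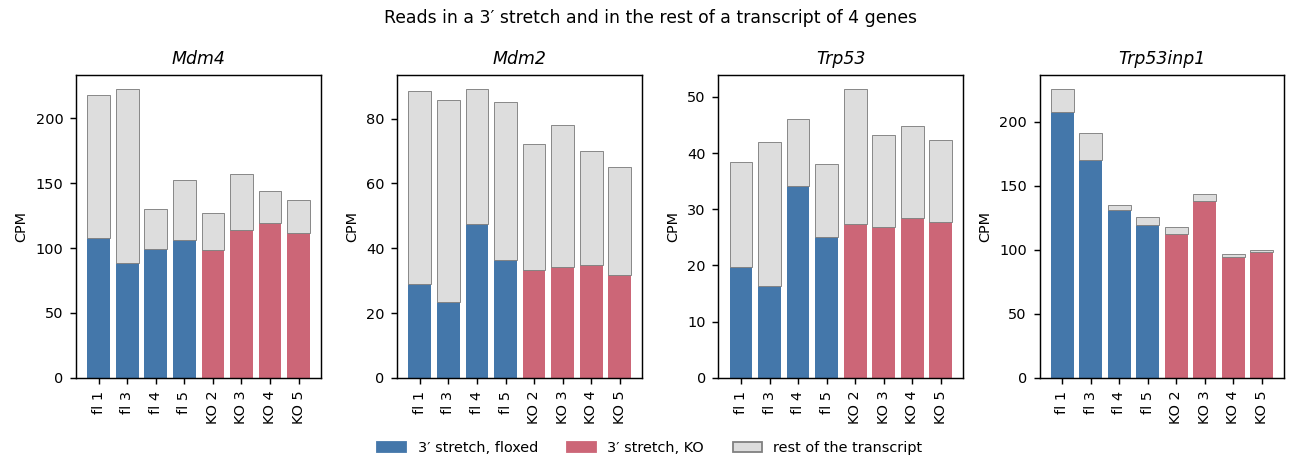
CPM of reads that touch only the 3′ stretch (coloured, blue for floxed and red for KO) and of the other reads of the same transcript (grey, stacked) for Mdm4 (a transcript that ends before the counted one), Mdm2, Trp53 and Trp53inp1 in each library, on linear axes from 0. The grey part of Mdm4 is 110.1 and 134 CPM in floxed 1 and 3 and at most 45.8 CPM in the other libraries.

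Levels of different genes were compared as CPM per kilobase of spliced transcript. In floxed libraries Gadd45a was highest, at 64.9 ± 9.49 CPM per kilobase (SD, n = 4), followed by Mdm4 (39.6), Trp53inp1 (31.4), Mdm2 (28.1), Trp53 (23.2), Bax (19.3), Ccng1 (16.1), Sesn2 (9.33), Bbc3 (6.65) and Cdkn1a (5.23 ± 0.823). Neighbours in this order were apart without overlap only for Gadd45a above Mdm4, Mdm2 above Trp53 and Ccng1 above Sesn2. In KO libraries Gadd45a was again first, at 110.3 ± 4.35 CPM per kilobase, Bax (31.9 ± 5.35) and Mdm4 (31.5 ± 2.58) came next with overlapping ranges, and Cdkn1a was last at 5.04 ± 0.514. Intron reads enter these levels, so they are not levels of spliced RNA alone.

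The rest of the pathway was read from a list of 60 further regulators and targets, of which 56 were tested. None passed the adjusted threshold in edgeR or in limma-voom (2.21% of all tested genes), 2 passed in DESeq2 (Btg2, higher, and Apaf1, lower), against 11.2% of all tested genes, and 6 had an unadjusted p under 0.05 in edgeR, against 21.8%. The median log2 fold change was 0.02, with 30 positive and 26 negative values. Without floxed 3, 11 of the list passed, 8 of them higher and 3 lower, in a fit where 3875 genes (17.5%) passed.

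By role, the regulator with the largest fold change was Atm, the kinase that signals DNA double-strand breaks. It was at 17.4, 30.0, 4.93 and 7.13 CPM in floxed and 7.97, 10.2, 6.07 and 5.22 CPM in KO libraries, a log2 fold change of -1.02 (SE 0.51, edgeR adjusted p = 0.282). As with Mdm4, floxed 1 and 3 were the highest libraries and the genotypes overlapped in the others. Unlike Mdm4, Atm was lower in all 4 libraries numbered 4 and 5 than in the other 4. Of the 56 tested genes of the list, 16 separated by number in either direction, against 25.7% of all tested genes. Sfn, the 14-3-3 protein that holds cells in G2, led the cell cycle targets with 0.77 (SE 0.46, edgeR adjusted p = 0.362). All 4 libraries numbered 4 and 5 were above the other 4 for Sfn, and with these numbers as a block it had 0.86 (edgeR adjusted p = 0.0080). Phlda3, an inhibitor of Akt, led the apoptosis targets with 0.74 at 0.468 to 3.58 CPM, and Sesn1, a sestrin, led the metabolic targets with 0.49 (edgeR adjusted p = 0.340). The translesion polymerase gene Polk had -0.57, and was also lower in all 4 libraries numbered 4 and 5 than in the other 4. The quiescence factor gene Gfi1 had -0.55, and the p53 relative Trp63 -1.61 at no more than 1.06 CPM in any library. None of these 7 passed in edgeR with all 8 libraries and no block. Without floxed 3, Sesn1 and Gfi1 passed, in the fit where 17.5% of tested genes did.

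Btg2, Apaf1, Siva1, Perp and Tigar are named after their values were seen, the first pair as the genes closest to the threshold. Btg2, an antiproliferative target, was at 149, 184, 157 and 163 CPM in floxed and 239, 237, 286 and 276 CPM in KO libraries, a log2 fold change of 0.67 (SE 0.15, edgeR adjusted p = 0.0501). Apaf1, the core of the apoptosome, was at 136, 102, 87.2 and 97.2 CPM in floxed and 63.9, 76.4, 58.9 and 59.4 CPM in KO libraries, a log2 fold change of -0.71 (SE 0.18, edgeR adjusted p = 0.0592). The genotypes did not overlap for either. Siva1 and Perp were also without overlap and higher in KO, and Tigar without overlap and lower, which makes 5 of 56 genes against 14.8% of all tested genes.

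**Figure D4:**
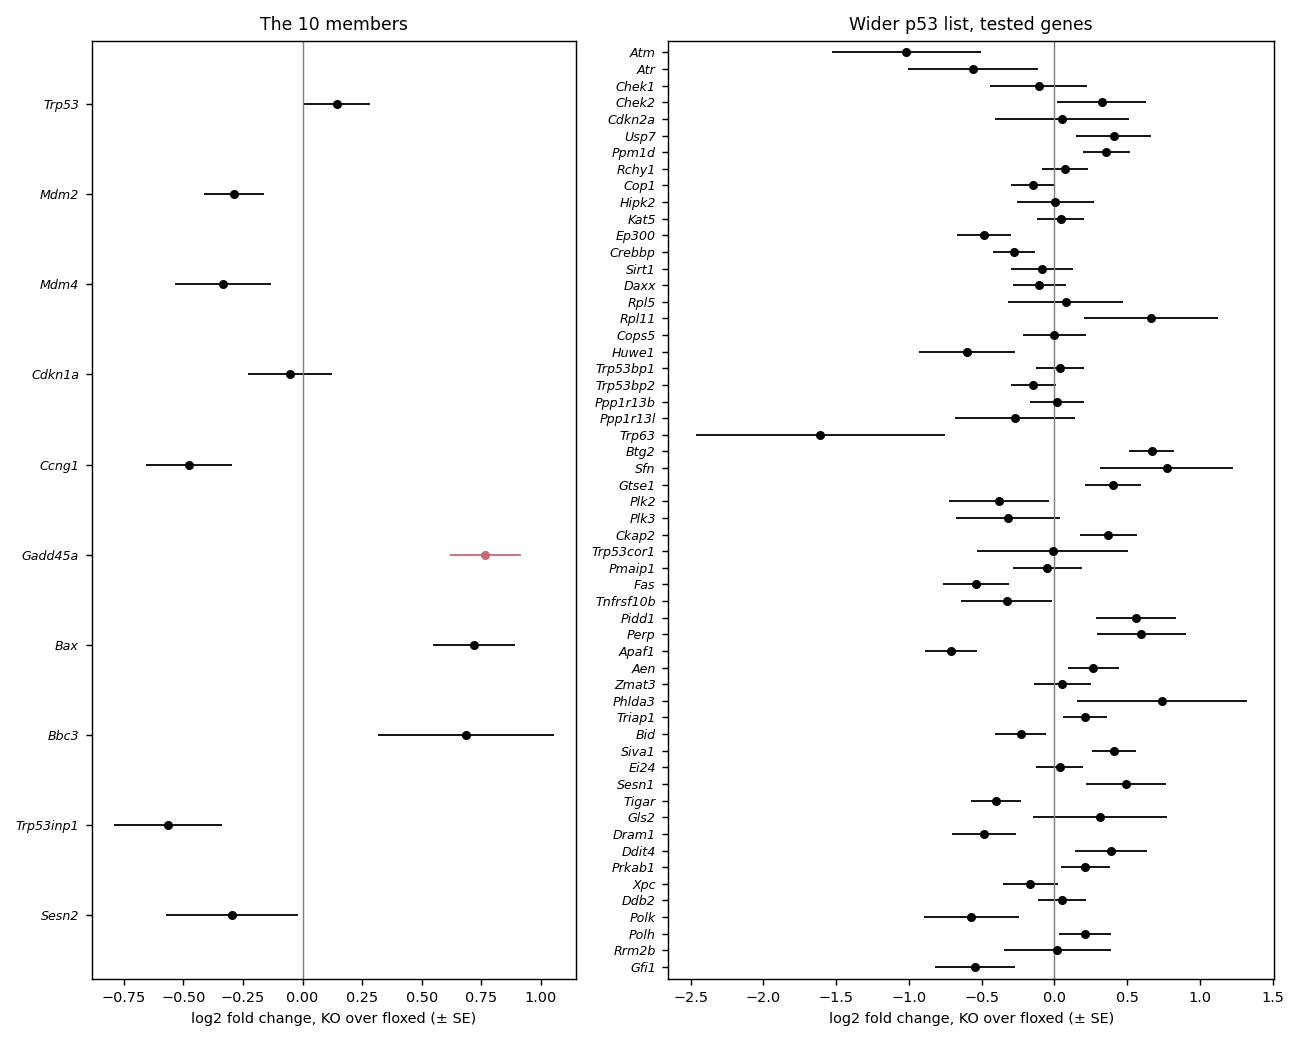
Log2 fold change, KO over floxed (horizontal axis), with its SE for the 10 members (left) and the 56 tested genes of the wider list by role (right), from edgeR. Gadd45a (red) is the gene past the adjusted threshold, and values on both sides of 0 occur in most roles.

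Genes whose log2 CPM followed Trp53 and Cdkn1a most closely over the 8 libraries were found among the genes with a mean of at least 10 CPM. For Trp53 these were Kalrn (Pearson r = 0.923), Erh (0.917) and Ubl4a (0.888), of 9084 genes. For Cdkn1a they were Ak6 (0.905), Taf9 (0.887) and Mir3064 (0.887), of 9085 genes. Ak6 and Taf9 overlap each other, Ak6 also overlaps Rad17, and Mir3064 overlaps Ddx5. Kalrn overlaps Gm49594, and Erh overlaps Gm47879 and Slc39a9, while Ubl4a overlaps none. The counts of overlapping genes can share reads. These r values are descriptions of 8 libraries that differ in genotype and number, and the highest of all genes compared.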

How the data were processed

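LT-HSC RNA from 4 asrij floxed and 4 asrij KO mice was analysed, grouped by the labels. The authors used FastQC for read quality, Trim Galore for trimming and Bowtie2 for alignment to GRCm38 (tools per the submitters' notes, versions not given in the sources used here) and deposited raw counts for 138930 Ensembl transcripts, without normalization. The counts are whole numbers in all 8 files. An automatic check of units could not read 7 of them, which are tab-separated, and their unit was recorded there as other. GENCODE M21 holds 138789 of the identifiers. A count covers a transcript's whole span with introns and both strands, as 4405 of 4405 pairs nested in introns showed. For each gene, the transcript most counted over all 8 libraries supplied the value. Totals were 56661356 to 120858975 transcript counts per library.

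After filterByExpr and TMM scaling, edgeR's quasi-likelihood test (version 4.0.16 under R 4.3.3; glmQLFit, then glmQLFTest) was applied, and p-values were adjusted by Benjamini-Hochberg over the 21902 tested genes. The 95% intervals use the fit's degrees of freedom. limma 3.58.1 and DESeq2 1.42.0 were alternatives. The tests were also run on simulated counts whose means and dispersions were taken from these data. The changes set there were larger than the fold change of any member, so this run does not show how well smaller changes are found. Other steps used Python 3.11.15. No 2 libraries of a genotype were duplicates (smallest chi-square per degree of freedom 10.7).

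Members and lists were chosen with earlier results of these data known, the alternatives of single stretches after the counts were seen. Named genes were the members, the gene with the largest fold change per role of the wider list, the 3 genes most like Trp53 and Cdkn1a, and overlapping genes with at least 10% of a member's count. Btg2, Apaf1, Siva1, Perp and Tigar fall outside this rule and were chosen after their values were seen. Numbers 3, 4 and 5 occur in both genotypes. Comparisons were made without a block, and the replicate block was an alternative, printed where it changed a call. Deviations from the genotype mean correlated between libraries of one number (r across genes of 0.374 to 0.579 in 3 pairs), and as highly between unlike numbers that both lie within 1 to 3 or within 4 and 5 (0.346 to 0.603). Pairs across these numbers had -0.589 to -0.340. The correlations thus follow numbers 1 to 3 against 4 and 5, and the labels do not say what the numbers stand for.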

Additional observations from a re-analysis of the deposited data

How the results depend on the processing

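Of 190 values of members under alternatives, 169 kept their direction and side of the threshold, 11 were weaker, 7 stronger and 3 reversed. The reversed ones were Trp53 with library totals only (-0.042) and Cdkn1a with summed transcripts (0.0037) and without floxed 4 (0.059), and the Mdm4 log2 ratio turned to 0.14 in the 3′ stretch alone of a transcript that ends before the counted one. Gadd45a lost significance with library totals (0.58, adjusted p = 0.0502 in edgeR), summed transcripts (0.81), the replicate block (0.77) and numbers 3 to 5 without the block (0.75, chosen after seeing the data), and ranged from 0.69 to 0.84 with 1 library left out. With numbers 4 and 5 as a block, Ccng1 (-0.48), Bax (0.71), Bbc3 (0.68) and Trp53inp1 (-0.54) passed. Bax also passed with the filter of 50 counts (0.73) and DESeq2 (0.73), and ranged from 0.66 to 0.83 with 1 library left out. Cdkn1a ranged from -0.11 to 0.06 there.

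The number of members past the adjusted threshold, 1 (2.97% of all genes), became 0 with library totals (4.15%), summed transcripts (2.79%), the replicate block (0.222%) and numbers 3 to 5 without it (0.111%), 2 with the filter of 50 counts (4.53%) and DESeq2 (11.2%), 5 with numbers 4 and 5 as a block (18.5%), and 0 to 2 with 1 library left out (0.274% to 17.5%). Against the same shares, the wider list went from 0 to 1 with RLE normalization (3.21%), the filter of 50 counts and summed transcripts, 2 with DESeq2, 5 with numbers 4 and 5 as a block, and 0 to 11 with 1 library left out. Of all genes, 261 passed both thresholds, against 503 in DESeq2, 44 with the replicate block, 521 with numbers 4 and 5 as a block, 23 with numbers 3 to 5 alone and 51 to 857 with 1 library left out. The genotype difference by library number passed for 0 to 2 members with 1 library left out. The replicate block changed no other call among the members. With 4 libraries a genotype, leaving out any library other than floxed 3 ended the Gadd45a call. The causes were not tested.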
